A study of Mus musculus with 203 samples.

Results

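A set of 10 genes encoding purine receptors was examined in single neurons of the mouse nucleus ambiguus, the brainstem nucleus that holds cardiac and laryngeal motor neurons. They were P2rx2, P2rx3, P2rx4, P2rx5, P2rx6 and P2rx7, P2ry1 and P2ry14, and Adora1 and Adora2a, out of 24029 genes counted. They were taken from the table by gene name, with no threshold on their levels. Neurons of C57BL/6 mice, C57BL/6NCrl in the study's methods, were labeled by the tracer cholera toxin B, taken up in the pericardial space or in the cricothyroid muscle of the larynx, and aspirated whole from brainstem slices at postnatal days 2 to 4. Each sample is 1 neuron, sequenced by Smart-seq2, a full-length cDNA method without molecular identifiers. The deposited annotation divides the neurons labeled from the heart into 53 ACP and 98 ACV neurons, and gives 52 neurons labeled from the larynx, called Larynx neurons here. No group carried a genetic change or a drug treatment under study, and the age is early postnatal in all of them. By the study's methods, all mice had buprenorphine for pain at the tracer injection, and isoflurane before the brain was taken.

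Purine receptors respond to extracellular ATP, its breakdown products and related nucleotides. The P2X genes encode subunits of cation channels that open on binding ATP, and the subunits assemble as trimers, some of them mixed. The P2Y genes encode G protein-coupled receptors, with ADP as the main agonist of P2ry1, which signals through Gq and phospholipase C, and UDP-glucose as an agonist of P2ry14, which signals through Gi. Adora1 encodes a Gi-coupled adenosine receptor known for restraining neuronal firing and transmitter release, and Adora2a a Gs-coupled one. In the ventral medulla, ATP and adenosine are known to modulate respiratory and autonomic neurons.

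The labels name no mouse or plate for a neuron, and ACP and ACV were defined by clustering these same counts, so each neuron type was treated as 1 sample and no p-value was computed. Levels are counts per 1000000 counts outside Rn45s (CPM), a ribosomal RNA precursor gene that took a median of 34.3% of counts in ACP, 35.8% in ACV and 58.6% in Larynx neurons. Counts outside Rn45s ran from 118492 to 2396541 per neuron, with medians of 1115375 in ACP, 1120511.5 in ACV and 560892 in Larynx neurons. Because Larynx neurons were shallower, the share of neurons with a read is also given for neurons thinned to 300000 counts. It is the share that thinning would leave on average. The 8 Larynx neurons that did not reach this depth were left out of it, which leaves 44, while no ACP or ACV neuron was left out. Intervals in brackets are exact (Clopper-Pearson) 95% binomial intervals, and they cover counting error only. The Poisson intervals of summed reads treat each read as independent. Without molecular identifiers, amplified copies count as separate reads. The Poisson intervals thus cover neither the error in counting molecules nor the spread between neurons. The markers given here, some of them genes that the clustering also used, were most widely found in their own type. Their reads were not confined to it. Slc18a3, the vesicular acetylcholine transporter, had a read in every neuron. Pappa2 had one in 94.3% of ACP, 5.10% of ACV and 21.2% of Larynx neurons. Hoxa5 had one in 95.9% of ACV, 37.7% of ACP and 36.5% of Larynx neurons. Calca had one in 96.2% of Larynx, 50.9% of ACP and 42.9% of ACV neurons, with means of 2095.3, 52.8 and 22.8 CPM. Calb1, an ACP marker of the study, had one in 77.4% of ACP, 44.9% of ACV and 44.2% of Larynx neurons. Transcripts of neighboring cells were present in all types, with a median sum over 10 astrocyte markers of 2231.3 CPM in ACP, 2449.9 in ACV and 2931.3 in Larynx neurons, and over 10 microglial markers of 101.82, 108.31 and 85.4 CPM, each marker being found in every type. The mean microglial sums were further apart, at 170.99 CPM in ACP, 575.56 in ACV and 343.64 in Larynx neurons, with a highest ACV neuron of 8601.1 CPM, and their part in the results was not tested.

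Transcripts of all 10 genes were found in each of the 3 neuron types, at low levels. Adora1 was the most widely detected, with a read in 75.4% of all neurons, followed by P2rx4 in 42.9% (87 neurons), P2ry1 in 37.9% (77 neurons) and P2rx2 in 31.5% (64 neurons). The other 6 genes were found in fewer neurons, from 30 neurons for P2rx6 and for P2ry14 down to 13 neurons for Adora2a. Per kilobase of exon, the mean over all neurons was highest for Adora1 at 11.8 CPM per kb and for P2rx2 at 8.89 CPM per kb, then 3.68 CPM per kb for P2ry1 and 3.09 CPM per kb for P2rx4. P2rx7 was the lowest of the 10 at 0.306 CPM per kb.

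**Figure D1:**
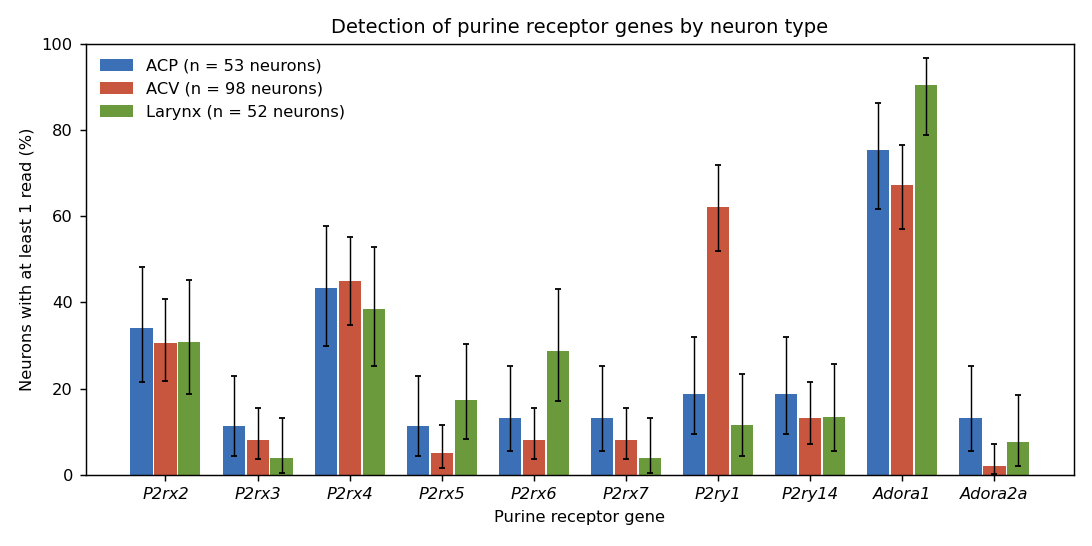
Share of neurons with at least 1 read (y axis, percent) of each purine receptor gene (x axis) in 53 ACP, 98 ACV and 52 Larynx neurons, with bars for the share and error bars for the exact 95% binomial interval. P2ry1 stood at 62.2% in ACV against 18.9% in ACP and 11.5% in Larynx neurons, and Adora1 was above 67% in every type.

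As a background for detection, 27 genes of other organs, such as liver, pancreas and skin, were counted in the same neurons. Their median share of neurons with a read was 0% in ACP, 1.02% in ACV and 1.92% in Larynx neurons, and their upper quartile was 3.77%, 15.3% and 5.77%, while Krt10, a skin keratin, reached 75.5% in both cardiac types. In ACV neurons the shares of P2rx3, P2rx5, P2rx6, P2rx7, P2ry14 and Adora2a were at or below that upper quartile. So were those of P2rx3 and P2rx7 in Larynx neurons. Whether the reads of these genes are background was not tested and cannot be told from the share alone. At least 10 reads were held by 6 of the 8 ACV neurons with P2rx3. It was 4 of 5 for P2rx5 and 6 of 8 for P2rx6. For P2rx7, P2ry14 and Adora2a it was 3 of 8, 7 of 13 and 2 of 2. Among Larynx neurons it was 2 of 2 for P2rx3 and 0 of 2 for P2rx7. P2rx2, P2rx4, Adora1 and P2ry1 were above the upper quartile in every type.

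P2ry1 had the largest gap in share of the 10 genes between ACV neurons and each of the other types. It had a read in 61 of 98 ACV neurons (62.2%, 51.9% to 71.8%), in 10 of 53 ACP neurons (18.9%, 9.44% to 31.97%) and in 6 of 52 Larynx neurons (11.5%, 4.35% to 23.4%). In ACV neurons the lowest level was 0, the median 7.55 and the highest 384.66 CPM, whereas in ACP neurons the lowest and the median were 0 and the highest 77.9 CPM, and in Larynx neurons the lowest and the median were 0 and the highest 11.7 CPM. The gene lies at chr3:61002795-61008982 on the plus strand of GRCm38 and shares 992 exon bases with an antisense gene, Gm37035, that is not in the count table. The types overlapped, because each held neurons without a read, yet only 4 ACP neurons and 1 Larynx neuron exceeded the ACV median. A mean of 30.7 ± 55.3 CPM (SD, n = 98 neurons) was reached in ACV neurons, against 3.20 ± 12.3 (SD, n = 53 neurons) in ACP and 0.470 ± 1.82 (SD, n = 52 neurons) in Larynx neurons. ACV neurons thus held 9.60-fold more than ACP neurons (log2 ACP over ACV −3.26) and 65.3-fold more than Larynx neurons (log2 ACV over Larynx 6.03). In all, 3846 reads fell on P2ry1 in ACV neurons (Poisson interval 3725 to 3970), while the Poisson interval was 140.8 to 192.2 for the sum in ACP neurons and, with 16 reads, 9.15 to 25.98 in Larynx neurons.

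The order of these shares was the same at equal depth. After thinning, P2ry1 was found in 56.9% of ACV, 14.1% of ACP and 7.27% of Larynx neurons. The thinned share fell short of that in ACV by 42.8 percentage points in ACP neurons, and 19 of 13356 genes (0.142%) had a gap as large in that direction. Against Larynx neurons the ACV share was 49.6 points higher, a gap matched by 13 of 13297 genes (0.0978%). Over the 8 other processing settings of the main list, the log2 ratio of ACP over ACV stayed between −3.94, without the highest neuron of each type, and −3.11, and that of ACV over Larynx between 5.84 and 7.38, the latter in neurons with at most 900 Apoe counts. The study itself picked P2ry1 out as higher in ACV from these same neurons, so its direction is not independent evidence.

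The ACV neurons that held P2ry1 reads also had more genes detected, with a median of 8289 genes in the 61 neurons with a read and 6467 in the 37 without, and a higher median of counts outside Rn45s. Whether the neurons without a read lack the transcript could not be told at this depth. Within ACV neurons, the ghrelin receptor gene Ghsr had a read in 80.3% of those with P2ry1 and 43.2% of those without, Lepr in 75.4% and 40.5%, and Sstr5 in 67.2% and 37.8%. The other genes typical of ACV neurons went the same way by share. Htr3b was in 57.4% and 37.8%, Bche in 96.7% and 78.4%, Hoxa5 in 100% and 89.2%, and Sstr2 in 63.9% and 56.8%. Means in both sets were close for Hoxa5 (442 and 443 CPM), Lepr (17.9 and 16.8) and Sstr2 (52.6 and 53.1). With P2ry1 they were higher for Ghsr (29.2 against 12.9 CPM), Sstr5 (61.5 against 20.3), Htr3b (61.4 against 38.3) and Bche (113.45 against 76.3). Genes typical of the other types went both ways by share in these ACV neurons. With and without P2ry1, Tacr3 was in 13.1% and 2.70%, Mc4r in 26.2% and 21.6%, and Calb1 in 45.9% and 43.2%. Calca was in 47.5% and 35.1%, Calcb in 63.9% and 51.4%, and Dlk1 in 26.2% and 18.9%. Pappa2, Trhr, Uts2 and Pnoc had smaller shares in the ACV neurons with P2ry1. Of the 10 ACP neurons with P2ry1 reads, 9 had reads of the ACP gene Pappa2, 6 of Calb1, 6 of Trhr, 6 of Tacr3 and 7 of Mc4r. Among the 43 ACP neurons without P2ry1, the shares were 95.3%, 81.4%, 79.1%, 65.1% and 74.4%. For the ACV genes the numbers were 5 for Bche, 4 for Hoxa5, 3 for Sstr2, 3 for Lepr and 1 for Sstr5. The shares of the 43 were 41.9%, 37.2%, 13.95%, 13.95% and 6.98%. No ACP neuron of either kind had reads of Ghsr or Htr3b. Of the laryngeal genes, Calca was in 7 of the 10, Calcb in 8, Dlk1 in 3, Pnoc in 3 and Uts2 in 1. Among the 43 these were in 46.5%, 53.5%, 13.95%, 25.6% and 9.30%. The P2ry1 level of the 10 ACP neurons, with a median of 6.46 CPM, was below the 31.4 CPM of the ACV neurons with a read. The interquartile ranges of 2.69 to 17.8 and 13.6 to 54.7 CPM overlapped.

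**Figure D2:**
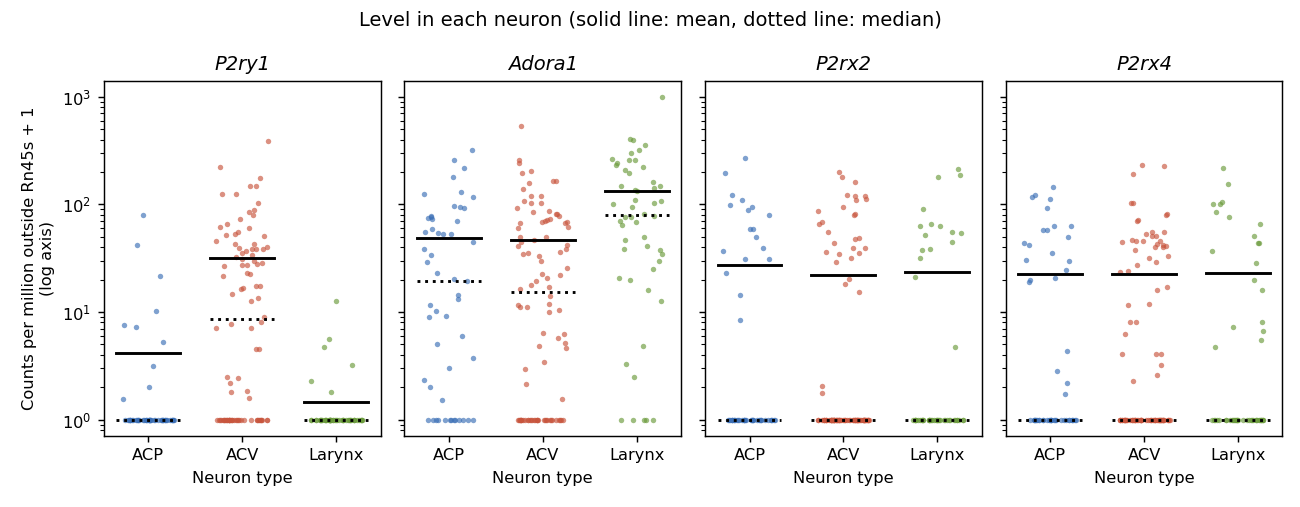
Level of P2ry1, Adora1, P2rx2 and P2rx4 in each neuron, as CPM plus 1 on a log axis (y), by neuron type (x), with each point a neuron, a solid line for the mean and a dotted line for the median. P2ry1 had a median above 0 in ACV neurons, at 7.55 CPM, and of 0 in the other types, Adora1 was highest in Larynx neurons with a median of 78.1 CPM, and P2rx2 and P2rx4 looked alike in the 3 types.

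P2ry14, the other P2Y gene on the list, was sparse in every type. It had a read in 18.9% of ACP, 13.3% of ACV and 13.5% of Larynx neurons, with means of 5.94, 2.69 and 3.14 CPM, and the 3 intervals overlapped. A single ACP neuron at 175.42 CPM gave 55.7% of the ACP sum. The ACP mean was 2.21-fold the ACV mean (log2 1.14), and the log2 ratio fell to 0.37 without the highest neuron of each type. For ACP over Larynx it was 0.92, and 0.17 to 1.32 over the settings tried. The gene lies at chr3:59113855-59153618 on the minus strand of GRCm38, inside the locus of Med12l on the opposite strand but without exon overlap in the GENCODE annotation.

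Adora1 was the only one of the 10 genes found in most neurons of every type, and it was highest in Larynx neurons. Reads were present in 47 of 52 Larynx neurons (90.4%, 78.97% to 96.8%), 40 of 53 ACP neurons (75.5%, 61.7% to 86.2%) and 66 of 98 ACV neurons (67.3%, 57.1% to 76.5%). Larynx neurons ran from 0 to 990.66 CPM with a median of 78.1, ACP neurons from 0 to 321.62 with a median of 18.2, and ACV neurons from 0 to 537.76 with a median of 14.3. The ranges overlapped, with 10 ACP neurons (18.9%) and 19 ACV neurons (19.4%) above the Larynx median. Means were 132.57 ± 164.5 CPM (SD, n = 52 neurons) in Larynx, 48.04 ± 69.2 (SD, n = 53 neurons) in ACP and 45.2 ± 75.6 (SD, n = 98 neurons) in ACV neurons. Larynx neurons were thus 2.76-fold above ACP (log2 ACP over Larynx −1.46) and 2.93-fold above ACV neurons (log2 ACV over Larynx −1.55). The 2 cardiac types were close, with a log2 ratio of 0.09 for ACP over ACV.

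At the thinned depth the shares of neurons with Adora1 were 93.1% in Larynx, 68.6% in ACP and 63.4% in ACV neurons. The Larynx share is over the 44 neurons that reached this depth, so it is not on the same neurons as the 90.4%. A gap as large in that direction was seen in 1.58% of genes between ACP and Larynx and in 1.67% between ACV and Larynx. The part of depth in the Adora1 difference was not tested. The size of the ratio leaned on the treatment of Rn45s, as log2 ACP over Larynx was −1.05 and log2 ACV over Larynx −1.01 on totals that kept it. In the neurons with fewer than 10 microglial reads, a limit chosen after seeing the data that left 7 ACP, 11 ACV and 12 Larynx neurons, log2 ACP over Larynx was −0.80, under 2-fold, log2 ACV over Larynx was −2.53, and Adora1 was found in 36.4% of ACV neurons. Adora1, at chr1:134199223-134235431 on the minus strand of GRCm38, shares 1162 exon bases with Mybph on the opposite strand, and the strand setting of the counting is not given in the sources used here. Mybph, a myosin-binding protein gene, had reads in 1 neuron only, a Larynx neuron, with a mean of 0.0866 CPM in that type.

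Adora2a was rare. Reads were found in 7 ACP neurons (13.2%, 5.48% to 25.3%), 2 ACV neurons (2.04%, 0.248% to 7.18%) and 4 Larynx neurons (7.69%, 2.14% to 18.5%). The highest neurons held 63.6 CPM in ACP, 40.2 in ACV and 111.13 in Larynx neurons, and the median was 0 in each. Its mean in ACP neurons, 3.70 CPM, was 6.94-fold that in ACV neurons, 0.533 CPM (log2 2.80), and close to the 3.33 CPM of Larynx neurons. Without the highest neuron of each type the log2 ratio of ACP over ACV was 4.37, and that of ACP over Larynx, 0.15, ran from −0.36 to 1.51 over the settings tried. Adora2a lies at chr10:75316877-75334784 on the plus strand. Of the 13 neurons with Adora2a, 12 also held Adora1, which is 92.3%, against 74.2% of the neurons without it.

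Among the channel subunits, P2rx2 and P2rx4 were present at like levels in the 3 types. P2rx2 encodes a subunit that forms slowly desensitizing channels. Its reads were found in 33.96% of ACP (21.5% to 48.3%), 30.6% of ACV (21.7% to 40.7%) and 30.8% of Larynx neurons (18.7% to 45.1%), with means of 26.2, 21.1 and 22.8 CPM and a median of 0 in each type. Neurons with P2rx2 reads had many of them, at least 10 reads in 17 of 18 ACP, 28 of 30 ACV and 15 of 16 Larynx neurons. Their median levels were 57.99, 50.95 and 53.8 CPM, and the highest neurons held 265.96, 197.87 and 210.22 CPM. A minority of each type thus had P2rx2 reads, mostly at least 10 of them, while most neurons had none. Whether the neurons without a P2rx2 read lack the transcript could not be told at this depth. Its log2 ratio of ACP over Larynx, 0.20, passed 2-fold in the neurons with at most 900 Apoe counts, where it was 1.22. P2rx2-positive neurons had more genes detected, with a median of 8399.5 against 7271.

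P2rx4 encodes a widely expressed subunit, also known from microglia, and lies beside P2rx7 on the plus strand of chromosome 5, at chr5:122707544-122729738 and chr5:122643911-122691432. Reads were present in 43.4% of ACP, 44.9% of ACV and 38.5% of Larynx neurons, and means were 21.4, 21.7 and 22.2 CPM. The log2 ratios were −0.02 for ACP over ACV, −0.06 for ACP over Larynx and −0.04 for ACV over Larynx. The highest neurons stood at 144.16, 229.74 and 214.93 CPM, and the median was 0 in each type, so the ranges overlapped. The median sum of microglial markers in neurons with and without P2rx4 reads was 102.84 and 64.9 CPM in ACP, 100.57 and 135.85 in ACV and 97.8 and 85.1 in Larynx neurons, and its part in the P2rx4 reads was not tested. P2ry12, a microglial receptor gene that is not among the 10, was found in 38 neurons with a median microglial sum of 411.14 CPM, against 90.7 CPM in the neurons without it.

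The other channel subunits were found in few neurons, and single neurons set much of their means. P2rx3, known from sensory neurons and able to form mixed channels with P2rx2, had reads in 6 ACP, 8 ACV and 2 Larynx neurons, with means of 11.6, 3.40 and 1.03 CPM. Its highest ACP neuron, at 341.93 CPM, gave 55.8% of the ACP sum, and the 3 highest gave 92.3%. The ACP mean was 3.40-fold the ACV mean (log2 1.77) and 11.2-fold the Larynx mean (log2 3.48), and without the highest neuron of each type these log2 ratios were 1.24 and 4.31. P2rx3 overlaps 51 exon bases of Ssrp1 on the other strand, a gene with means of 105.48 CPM in ACP, 104.92 in ACV and 74.2 in Larynx neurons.

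P2rx5 had reads in 6 ACP (11.3%), 5 ACV (5.10%) and 9 Larynx neurons (17.3%). Means were 1.61 CPM in ACP, 4.35 in ACV and 11.6 in Larynx neurons, and the 3 highest neurons gave 96.7% of the ACV sum and 85.1% of the Larynx sum. ACV neurons had the smaller share than ACP neurons but the larger mean, so that no order of the cardiac types can be read from this gene. The Larynx mean was 7.22-fold the ACP mean (log2 −2.85 for ACP over Larynx) and 2.67-fold the ACV mean (log2 −1.42), and the latter turned to 1.07 when neurons above 900 Apoe counts were left out.

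P2rx6, whose product mostly acts in mixed channels, was found more widely in Larynx neurons, in 15 of 52 (28.8%, 17.1% to 43.1%), than in 7 of 53 ACP (13.2%, 5.48% to 25.3%) and 8 of 98 ACV neurons (8.16%, 3.59% to 15.5%). At the thinned depth the shares were 30.8%, 12.3% and 6.51%, the first over the 44 Larynx neurons that reached it. A gap as large in that direction was seen in 3.63% of genes for ACP and 3.06% for ACV. Levels differed by less than 2-fold on the mean, at 5.24 CPM in Larynx, 3.56 in ACP and 2.72 in ACV neurons, where single neurons gave 52.5% of the ACP sum and 51.2% of the ACV sum. Without the highest neuron of each type the log2 ratios reached −1.32 for ACP over Larynx and −1.68 for ACV over Larynx. P2rx6 at chr16:17561885-17577800 shares 554 exon bases with Slc7a4 on the opposite strand, which had means of 139.55 CPM in ACP, 144.96 in ACV and 154.32 in Larynx neurons.

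P2rx7, which needs high ATP to open and is known from immune and glial cells, had reads in 7 ACP, 8 ACV and 2 Larynx neurons, and 4 reads in all in Larynx neurons (Poisson interval 1.09 to 10.2). Means were 2.36, 2.45 and 0.104 CPM. Because the Larynx mean rests on 4 reads, the size of the ratio of ACP over Larynx (log2 4.50) is not well determined, and 1 neuron gave 50% of the ACP sum. A single neuron at 168.81 CPM gave 70.3% of the ACV sum. The 17 neurons with P2rx7 differed from the others in glial markers and in genes detected. Their median sum of microglial markers was 204.83 CPM against 101.25 CPM in the others, and in ACV neurons 2910.5 against 102.71 CPM. Medians were 195.11 against 29.7 CPM for oligodendrocyte precursor markers, 4043.2 against 2479.9 CPM for astrocyte markers and 240.79 against 271.86 CPM for oligodendrocyte markers. In the same neurons the median Apoe count was 1715 against 807.5 and the median number of genes 9891 against 7558, and the part of these in the P2rx7 reads was not tested.

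Counted by a 2-fold ratio of means, with a read in 10% or more of the neurons of either member of a pair, 5 of the 10 genes were past it between ACP and ACV. P2rx3, P2ry14 and Adora2a were higher in ACP, where 9.87% of 13356 genes tested were called in that direction, and P2ry1 and, on the mean alone, P2rx5 were higher in ACV, against 8.63% of genes. Between ACP and Larynx neurons, P2rx3, P2rx7 and P2ry1 were higher in ACP (10.3% of 13256 genes) and P2rx5 and Adora1 in Larynx (12.5%). Between ACV and Larynx neurons 7 of the 10 genes passed the filter, with P2ry1 higher in ACV (10.4% of 13297 genes) and P2rx5 and Adora1 higher in Larynx (14%). The other 3 genes, P2rx3, P2rx7 and Adora2a, were in under 10% of the neurons of both types. Between ACP and ACV, P2rx3 and Adora2a passed the filter through their ACP share alone, as did P2rx3 and P2rx7 between ACP and Larynx neurons. P2rx5, called higher in ACV than in ACP, also passed through its ACP share alone, at 11.3% against 5.10% in ACV. Between ACV and Larynx neurons, P2rx5 passed through its Larynx share alone, at 17.3% against 5.10% in ACV. All these calls are a description and their counts support nothing further. With a filter of 25%, 1 gene was past 2-fold between ACP and ACV and 1 between ACP and Larynx neurons. The median log2 ratio of the genes that passed was 0.20 for ACP over ACV, 0.18 for ACP over Larynx and −0.22 for ACV over Larynx, beside medians of 0.00, −0.03 and −0.02 over all genes tested. Totals that kept Rn45s shifted the all-gene medians to 0.58 for ACP over Larynx and 0.52 for ACV over Larynx, and raised the part of calls that were higher in the cardiac type from 45.3% to 83.02% and from 42.7% to 77.5%.

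**Figure D3:**
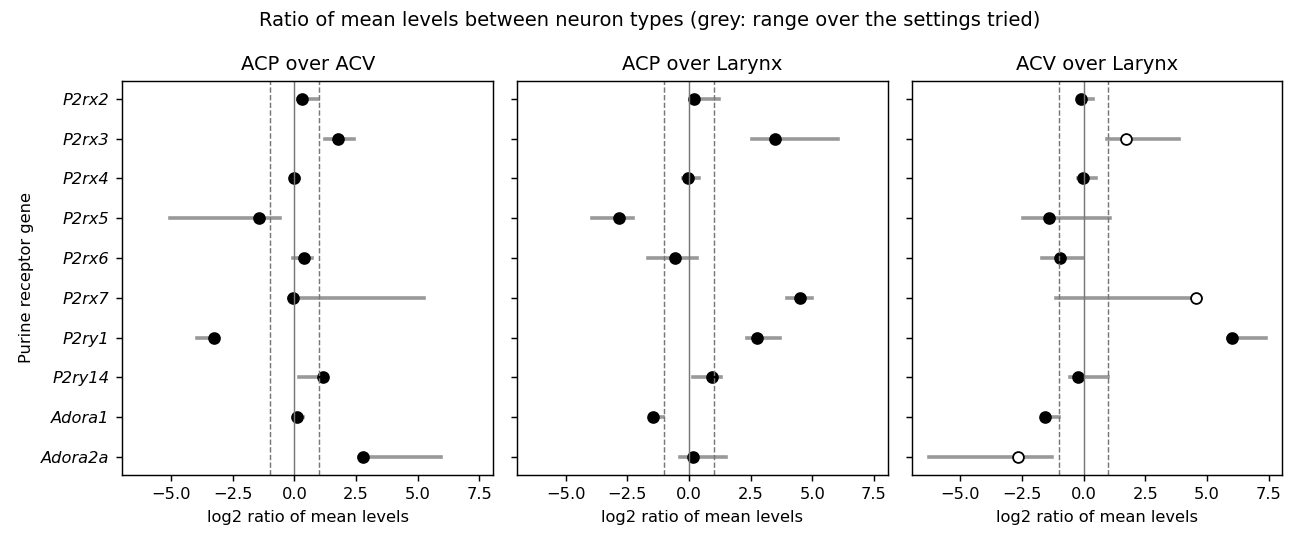
Log2 ratio of mean CPM (x axis) of each purine receptor gene (y axis) for ACP over ACV, ACP over Larynx and ACV over Larynx, with dots for the value, open dots where under 10% of the neurons of both types had a read, grey bars for the range over the main and the 8 other settings of the main list, and dashed lines at 2-fold. P2ry1 and, against Larynx neurons, Adora1 kept their side of the dashed lines over these settings, the main values of P2rx2 and P2rx4 lay near 0, with a range of P2rx2 up to 1.22 for ACP over Larynx, and the ranges of P2rx5, P2rx7 and Adora2a were wide.

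Neurons held several of the 10 genes at once. The median was 2 genes with a read per neuron in each type, with 0 to 7 in ACP, 0 to 5 in ACV and 0 to 7 in Larynx neurons, and means of 2.53 ± 1.72, 2.50 ± 1.36 and 2.46 ± 1.65 (SD). No gene was found in 6 ACP, 7 ACV and 3 Larynx neurons. At least 1 channel subunit was present in 67.9% of ACP, 66.3% of ACV and 69.2% of Larynx neurons, and summed channel levels averaged 66.7, 55.7 and 63.03 CPM. The P2Y pair was present in 32.1%, 67.3% and 23.1%, and the adenosine pair in 77.4%, 67.3% and 90.4%.

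**Figure D4:**
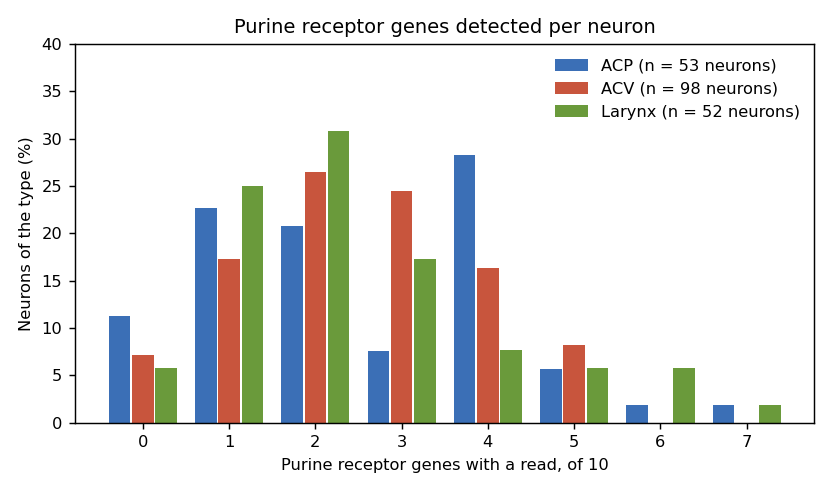
Number of the 10 purine receptor genes with at least 1 read in a neuron (x axis) and the percent of the neurons of each type (y axis) for 53 ACP, 98 ACV and 52 Larynx neurons. The types shared a median of 2 genes, and 20 ACP, 24 ACV and 11 Larynx neurons held 4 or more.

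P2rx2 and P2rx4 were found together in 36 neurons. P2rx4 had a read in 56.2% of P2rx2-positive and 36.7% of P2rx2-negative neurons, and it was the more frequent in P2rx2-positive neurons in each type, at 61.1% against 34.3% in ACP, 53.3% against 41.2% in ACV and 56.2% against 30.6% in Larynx neurons. P2rx2 and P2rx3, the pair known to form mixed channels in sensory neurons, met in 6 neurons, 2 ACP, 3 ACV and 1 Larynx, with P2rx2 in 37.5% of P2rx3-positive and 31.02% of P2rx3-negative neurons. In ACV neurons P2ry1 had a read in 34 of the 44 P2rx4-positive neurons (77.3%) and 27 of the 54 P2rx4-negative ones. P2rx3 and Adora2a, both rare, met in 6 of the 16 neurons with P2rx3, and 7 further neurons held Adora2a without it. P2rx6 and P2ry14 met in 12 neurons, 6 of them Larynx. For each of the 10 genes, neurons with a read had a higher median number of genes detected than those without, and its part in these shared detections was not tested.

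The genes most like P2ry1 across all neurons, by Pearson r of ln(CPM + 1) among 11195 genes, were Bche, which encodes butyrylcholinesterase, with r of 0.53, Susd5 with 0.50 and the tetraspanin gene Cd9 with 0.50. Within the 98 ACV neurons the values were 0.30, 0.30 and 0.32. The genes most like Adora1 were Ret, the GDNF receptor kinase gene, with r of 0.40, Adcyap1r1, the PACAP receptor gene, with 0.40 and Slc44a5 with 0.40. Within the 52 Larynx neurons these were 0.46, 0.37 and 0.41. Neurons share depth and type in these values, which describe likeness of pattern alone.

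Of 9 further purine receptor genes, 2 passed the 10% filter in each pair of types. P2ry12 was 4.03-fold higher in ACV and 6.398-fold higher in Larynx than in ACP neurons, and Adora2b, a low-affinity adenosine receptor gene, had means of 3.72 CPM in ACP, 1.86 in ACV and 6.98 in Larynx neurons. P2ry2 and P2ry4 had reads in 1 and 2 ACP neurons and in no others, Adora3 in 1 ACV neuron, and P2ry10 in none, which, with 3 neurons put in place of 0, allows a share of neurons with a read of up to 5.66% in ACP, 3.06% in ACV and 5.77% in Larynx neurons.

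Genes listed for storing, releasing or clearing the agonists were counted in the same way. Between ACP and ACV, 9.87% of all genes tested were higher in ACP and 8.63% in ACV. Between ACP and Larynx neurons these shares were 10.3% and 12.5%, and between ACV and Larynx neurons 10.4% and 14%. With so few genes per list, the counts here and below are a description and no result about a pathway. Among 8 genes of ATP storage and release, 5 passed the filter, 1 was higher in ACP than in ACV and none the reverse, and 2 and 1 were higher in Larynx than in ACP and ACV neurons. Panx2, a pannexin gene, averaged 42.8 CPM in ACP and 19.5 in ACV neurons, the connexin gene Gjc1 averaged 9.63 in Larynx against 2.62 in ACP neurons, Gjd2 39.4 against 16.99, and Vdac1, the most abundant of the list, 680.66, 750.39 and 772.46 CPM in ACP, ACV and Larynx neurons. Slc17a9, the vesicular nucleotide transporter, had reads in 1 ACV and 1 Larynx neuron. The list of extracellular nucleotide breakdown held 11 gene symbols, with Acpp and Acp3 both naming the same gene, and 10 symbols were in the table. Between ACP and ACV, 5 of these passed the filter, with Enpp2 (61.5 against 16.4 CPM) and Entpd3 (23.6 against 7.15 CPM) higher in ACP and Alpl (0.711 against 10.01 CPM) and Entpd2 (1.96 against 4.996 CPM) higher in ACV. Enpp2 was counted as a member of the Enpp gene family, and whether its product clears nucleotides here was not tested. Nt5e, the ecto-enzyme that makes adenosine from AMP, had 4 reads in ACP neurons, so the ratios between its means of 0.0651, 4.13 and 2.41 CPM in ACP, ACV and Larynx neurons are not well determined in size. Against Larynx neurons 1 gene of the list, Enpp2, was higher and 1, Nt5e on those 4 reads, lower in ACP, and 2 were higher and 1 lower in ACV.

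Adenosine uptake and metabolism showed like counts, with 11 of 13 genes past the filter in each pair. There, 1 was higher and 1 lower in ACP than in ACV, and 2 were higher in Larynx than in each cardiac type. Over all genes tested, 8.63% to 14% were called per pair and direction. The nucleoside transporter gene Slc29a1 averaged 52.97 CPM in ACP and 18.7 in ACV neurons, Slc29a3 averaged 22.96 in Larynx against 6.67 in ACP and 9.16 in ACV neurons, and Slc29a4, the highest of the list, 208.27, 112.29 and 253.7 CPM in ACP, ACV and Larynx neurons. Ada, which deaminates adenosine, averaged 1.32 CPM in ACP and 4.95 in ACV neurons.

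On the side of the signals that these receptors use, all 10 listed G protein alpha subunit genes passed the filter. Of these, 1 was higher in ACP than in ACV neurons, and 2 and 1 were higher in Larynx than in ACP and ACV neurons. For this list and the 2 that follow, the share called over all genes tested was 8.63% to 14% per pair and direction. Gnaq, the partner of P2ry1, averaged 296.84 CPM in ACP, 328.79 in ACV and 266.65 in Larynx neurons and was found in every neuron, and Gnao1, of the Gi class, averaged 326.39, 263.47 and 353.62 CPM. Gna14 was 9.32-fold higher in Larynx than in ACV neurons, and Gnas, the most abundant of the list and the partner of Adora2a, was 2.46-fold higher in Larynx than in ACP neurons. Among 11 phospholipase C beta and adenylyl cyclase genes, 10 passed the filter, with 2 higher in ACV than in ACP, 2 higher in Larynx than in ACP, and 1 higher and 3 lower in ACV than in Larynx neurons. Plcb4 averaged 385.68 CPM in ACV against 43.01 in ACP and 63.7 in Larynx neurons, while Adcy8 averaged 66.8, 10.7 and 46.1 CPM in ACV, ACP and Larynx neurons. Of the 4 GIRK potassium channel genes, effectors of Gi-coupled receptors such as Adora1, 3 passed the filter, with 1 higher in ACP than in ACV, 2 higher in ACP than in Larynx, and 1 higher and 1 lower in ACV than in Larynx neurons. Kcnj3 averaged 21.1 CPM in ACP, 5.38 in ACV and 21.4 in Larynx neurons, and Kcnj6 and Kcnj9 were 2.99-fold and 2.42-fold higher in ACP than in Larynx neurons.

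The lists differed in their medians, beside the medians over all genes tested. For ACP over ACV, ACP over Larynx and ACV over Larynx, the median log2 ratio was −0.14, −0.29 and −0.53 for ATP storage and release, 0.09, −0.51 and −0.77 for nucleotide breakdown, and −0.02, −0.07 and −0.23 for adenosine uptake and metabolism. It was 0.07, −0.06 and −0.19 for the G protein alpha subunits and 0.09, −0.59 and −0.31 for the phospholipase C beta and adenylyl cyclase genes. The GIRK genes, with 3 genes past the filter, had medians of 0.91, 1.27 and 0.36, and the further purine receptors, with 2 genes, −0.51, −1.79 and −1.29.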

How the data were processed

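Single nucleus ambiguus neurons were sequenced by Smart-seq2, and raw, unnormalized read counts per gene symbol were deposited by the authors, who had used Skewer for trimming and STAR 2.6.1d for alignment to mm10. For their own comparisons they normalized these counts with Seurat. The counting program, its annotation and its strand setting are not given in the sources used here. Of 24029 genes, 4493 had no count in any neuron. A second deposited table, named CPM, was not used because its columns do not sum to a common total. Neuron types were taken from the deposited annotation.

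Counts were scaled to 1000000 counts outside Rn45s, averaged over the neurons of a type and compared as ratios, called at 2-fold for genes with a read in 10% or more of the neurons of either member of a pair. A type at 0 was set to 3 counts over the group, and its ratio is then a bound. Depths ran from 118492 to 2396541 counts outside Rn45s per neuron, so that 1 read is worth more CPM in shallow neurons. Each type is 1 sample, so no test was made, in place of the rank sum test over neurons that the authors used. The authors clustered the same counts to define ACP and ACV. Shares were given exact 95% binomial intervals. The scripts were tested on simulated data. The 10 members and the pathway, marker and organ lists were chosen with earlier results of these data known. From each pathway list the genes named were those past 2-fold in a pair of types, up to 4 by size, and the most abundant, with a few others as background. Exon lengths, positions and overlaps came from GENCODE vM21 on GRCm38.

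Alternatives were totals with Rn45s, TMM sizes (edgeR 4.0.16), DESeq2 1.42.0 size factors, pooled counts, leaving out the highest neuron, limits on Apoe and depth, thinning, detection filters and read minimums. A limit on microglial reads was added after seeing the data. Python 3.11.15, numpy 2.4.6, scipy 1.17.1 and pandas 2.3.3 were used.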

Additional observations from a re-analysis of the deposited data

How the results depend on the processing

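The ratios of P2ry1 and Adora1 past 2-fold kept their direction and size class under the 8 other scalings and neuron subsets of the main list. Under the limit of fewer than 10 microglial reads, chosen after seeing the data and met by 7 ACP, 11 ACV and 12 Larynx neurons, log2 Adora1 for ACP over Larynx was −0.80, P2rx4 turned to 4.79 for ACP over ACV and P2ry14 to 1.62 for ACV over Larynx, P2ry1 was found in 0% of ACP and 45.5% of ACV neurons and Adora1 in 36.4% of ACV neurons, 3 members passed for ACP over Larynx, and 6384, 6571 and 5898 genes passed for ACP over ACV, ACP over Larynx and ACV over Larynx. With at most 900 Apoe counts (26 ACP, 44 ACV and 38 Larynx neurons), P2rx5 turned to 1.07 for ACV over Larynx, Adora1 was found in 56.8% of ACV neurons, and 3 members passed for ACP over ACV, as with pooled counts (3). With at least 10 reads required, P2ry1 was found in 9.43% of ACP, 46.9% of ACV and 1.92% of Larynx neurons (1.92% also at 5 reads) and Adora1 in 60.4% of ACP neurons against 54.1% in ACV. With no detection filter, 5790, 6299 and 6619 genes passed 2-fold in the 3 pairs, and 6 members for ACV over Larynx. With detection in 25% of either type, 1326, 1833 and 2046 genes passed, and 1 member each for ACP over ACV and ACP over Larynx. The filters change how many genes are tested by construction. For the rest, the cause was not tested. Counting each of the other member ratios once per alternative, a ratio under 2-fold or outside the detection filter came to pass both in 20 cases and a passing ratio no longer did in 10. No paired analysis was possible because the labels give no replicate numbers that groups share and no result comes from a test. Genes found in few neurons are limited by depth, and their means by single neurons.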
